A study of Homo sapiens with 30 samples.

Results

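The genes described here are the 8 AP-1 subunits FOS, FOSB, FOSL1, FOSL2, JUN, JUNB, JUND and ATF3, chosen by name from the 26255 genes of the RNA-seq table. All 8 were expressed, with at least 1 FPKM (sequenced fragments scaled to transcript length and library size, a level per length) in each of 4 lines. The lines are RWPE1, an immortalized normal prostate epithelial cell line, after stable retroviral transduction. RWPE1-Vector carried the empty pQCXIH and pBabe-puro vectors, RWPE1-ERG carried ERG isoform 1 in pQCXIH with empty pBabe-puro, RWPE1-mAKT carried empty pQCXIH with myristoylated, constitutively active AKT in pBabe-Puro, and RWPE1-ERG+mAKT carried both proteins. ERG is an ETS family transcription factor, so the 4 lines ask what ERG and an active PI3K/AKT pathway do to transcription, alone and together. Peak lists from chromatin immunoprecipitation (ChIP) were used for the kinase ERK2 in RWPE1-Vector and RWPE1-ERG, for ERG in RWPE1-ERG+mAKT, and for ERG in DMSO-treated VCaP cells, a prostate cancer line that expresses ERG from its own gene fusion. For ERK2 and H3K27me3 the labels name only the pQCXIH vector, without pBabe. ATAC-seq lists of open chromatin were used for the 3 lines with ERG, with mAKT and with both, and H3K27me3 lists for RWPE1-Vector, RWPE1-ERG and the phosphomimetic mutant RWPE1-ERG S96E.

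AP-1 is a dimer of basic leucine zipper proteins. Jun proteins pair with each other or with Fos proteins, whereas Fos proteins need a Jun partner, and the dimers bind TGANTCA and related elements such as TGACGTCA. ERK and JNK kinases control both the transcription of the subunit genes and the activity and stability of the proteins, and ETS factors often occupy composite sites next to AP-1.

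The transduced gene separated the lines as labelled, with ERG at 0.26 FPKM in RWPE1-Vector, 357.6 in RWPE1-ERG, 0.43 in RWPE1-mAKT and 328.0 in RWPE1-ERG+mAKT. Basal markers KRT5, KRT14, KRT15, TP63 and ITGA6 were all expressed, with summed levels between 2041.9 and 6377.6 FPKM. KLK3, which marks luminal prostate cells, was listed at 0 in all 4 lines, and the 3 endothelial markers summed to at most 0.29 FPKM. The deposited table holds 1 FPKM value a line, pooled by the authors over 3 libraries. No spread between libraries could be had, so every RNA difference below is a ratio of pooled values with no test, and orders of levels cannot be set against an error. In bulk RNA, fewer cells that express a gene and less RNA per cell cannot be told apart.

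The listed ERG peaks that lay within 20 kb of a subunit locus and in open chromatin are printed first. None of them passed a q-value of 0.01. All sequences are GRCh37 (hg19), plus strand, 5′ to 3′. Capitals mark the ETS words GGAAGT and AGGAAG, the AP-1 word TGANTCA, the cAMP-response word TGACGTCA and its variant TGACATCA, searched on both strands. The words GGAAGT and AGGAAG can overlap each other.
JUNB, ERG peak of RWPE1-ERG+mAKT, chr19:12894644-12894757: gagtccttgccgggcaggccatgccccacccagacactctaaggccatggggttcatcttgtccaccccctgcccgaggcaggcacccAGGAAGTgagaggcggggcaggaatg
JUN, ERG peak of RWPE1-ERG+mAKT, chr1:59228841-59229081: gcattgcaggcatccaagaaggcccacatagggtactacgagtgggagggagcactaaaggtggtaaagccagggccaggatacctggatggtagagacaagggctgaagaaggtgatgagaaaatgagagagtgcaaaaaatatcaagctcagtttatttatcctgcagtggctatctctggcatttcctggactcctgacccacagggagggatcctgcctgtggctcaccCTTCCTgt
FOSL1, ERG peak of RWPE1-ERG+mAKT, chr11:65679581-65679689: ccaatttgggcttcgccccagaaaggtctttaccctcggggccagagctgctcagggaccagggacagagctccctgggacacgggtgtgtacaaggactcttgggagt
FOSL2, ERG peak of RWPE1-ERG+mAKT, chr2:28632151-28632368: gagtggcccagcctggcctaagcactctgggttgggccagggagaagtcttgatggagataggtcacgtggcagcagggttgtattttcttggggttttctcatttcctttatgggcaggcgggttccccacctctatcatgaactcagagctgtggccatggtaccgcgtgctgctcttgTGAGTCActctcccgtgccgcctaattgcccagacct
FOSB, ERG peak of VCaP cells, chr19:45981609-45981787: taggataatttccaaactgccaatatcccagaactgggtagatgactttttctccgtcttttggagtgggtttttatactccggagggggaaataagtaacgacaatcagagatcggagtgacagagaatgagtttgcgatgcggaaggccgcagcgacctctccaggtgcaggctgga

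The JUNB site held AGGAAGT, 74 bp from the peak summit. The FOSL2 site held the AP-1 word TGAGTCA, 97 bp from the summit. The JUN site held AGGAAG on the minus strand, 175 bp from the summit, and the FOSL1 and FOSB sites held none of the 5 words. Within 100 bp of the summit, 1 of the 6 ERG peaks near subunits in RWPE1-ERG+mAKT held GGAAGT, against 14.9% of all 9113 ERG peaks. For TGANTCA the values were 1 of 6 peaks and 12.7%. These matches are descriptions of letters and were not tested.

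Promoters are shown for JUNB and JUND, where the 250 bases before the start lay outside annotated UTRs and in or across an ATAC peak of RWPE1-ERG. The sequences are from RefSeq on GRCh38.p14, in the direction of transcription, and the table held a promoter for 7 of the 8 genes.
JUNB, chr19:12791236-12791485, plus strand: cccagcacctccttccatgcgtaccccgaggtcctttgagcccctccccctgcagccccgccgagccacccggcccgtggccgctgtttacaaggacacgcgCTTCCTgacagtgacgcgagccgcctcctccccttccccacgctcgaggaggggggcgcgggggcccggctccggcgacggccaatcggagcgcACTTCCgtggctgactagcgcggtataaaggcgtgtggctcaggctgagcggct
JUND, chr19:18281623-18281872, minus strand: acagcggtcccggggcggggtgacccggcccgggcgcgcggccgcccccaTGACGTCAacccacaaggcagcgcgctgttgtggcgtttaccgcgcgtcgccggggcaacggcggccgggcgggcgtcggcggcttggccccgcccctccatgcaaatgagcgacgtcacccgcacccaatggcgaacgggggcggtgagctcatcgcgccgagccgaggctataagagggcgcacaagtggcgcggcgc

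The JUNB promoter held AGGAAG and GGAAGT, both on the strand opposite to the gene. GGAAGT was also present before FOSB and AGGAAG before FOSL2, so each word was found for 2 of the 7 genes. Among all 35116 promoters, 28.7% held AGGAAG and 19.5% held GGAAGT. The JUND promoter held the full TGACGTCA, the element that CREB and ATF proteins bind, which 1.65% of all promoters held. TGACATCA, the element through which JUN is known to act on its own promoter, was present before JUN and before 1 of the 2 listed starts of ATF3, and in 2.37% of all promoters. TGANTCA was present in 0 of the 7 subunit promoters and in 6.57% of all promoters.

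Among the Fos proteins, FOSL1 (FRA-1), which lacks the transactivation domain of FOS and is a stable product of sustained ERK signalling, was the most abundant mRNA in every line. FOSL1 stood at 118.9 FPKM in RWPE1-Vector, 200.3 in RWPE1-ERG, 100.4 in RWPE1-mAKT and 78.05 in RWPE1-ERG+mAKT. It was thus highest with ERG alone and lowest with ERG and mAKT together. It was 1.69-fold higher in RWPE1-ERG than in RWPE1-Vector (log2 ratio 0.75) and 2.57-fold lower in RWPE1-ERG+mAKT than in RWPE1-ERG (log2 ratio -1.36). Without ERG, RWPE1-mAKT was 1.18-fold lower than RWPE1-Vector.

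FOSL2 (FRA-2), the closest relative of FOSL1, had the opposite order with ERG. It stood at 26.76 FPKM in RWPE1-Vector, 17.95 in RWPE1-ERG, 26.48 in RWPE1-mAKT and 34.35 in RWPE1-ERG+mAKT. FOSL2 was 1.49-fold lower in RWPE1-ERG than in RWPE1-Vector and 1.91-fold higher in RWPE1-ERG+mAKT than in RWPE1-ERG. The locus of FOSL2 in the table is shared with FLJ31356, which was listed at 0.08 to 0.13 FPKM.

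FOS, the immediate early partner of JUN, stood at 8.86 FPKM in RWPE1-Vector, 9.04 in RWPE1-ERG, 8.23 in RWPE1-mAKT and 12.05 in RWPE1-ERG+mAKT. The first 3 of these lay close together, and the line with both proteins was 1.46-fold above RWPE1-mAKT. FOSB, also an immediate early gene, was the least abundant subunit, at 2.61 FPKM in RWPE1-Vector, 1.15 in RWPE1-ERG, 2.28 in RWPE1-mAKT and 1.45 in RWPE1-ERG+mAKT. Both lines with ERG were lower than both lines without it. FOSB was 2.28-fold lower in RWPE1-ERG than in RWPE1-Vector and 1.57-fold lower in RWPE1-ERG+mAKT than in RWPE1-mAKT. Only 1.7% of the genes at 1 FPKM or more in RWPE1-ERG were below it, so these are ratios near the floor. ERCC1, on the opposite strand, spans FOSB but shares no annotated exon with it.

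**Figure D1:**
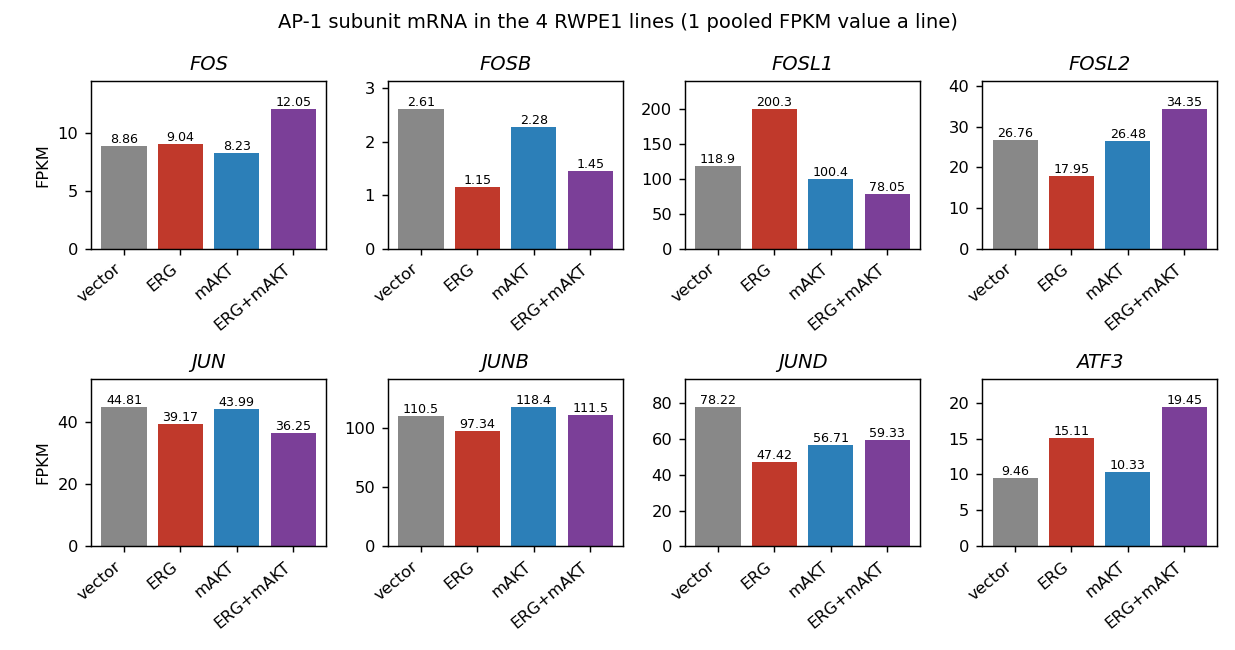
FPKM (vertical axes, each from 0) of the 8 AP-1 subunits in the 4 RWPE1 lines, with 1 bar for the pooled value of a line and no error bars because the table holds no single libraries. FOSL1 peaks at 200.3 with ERG alone, FOSB is lower in both lines with ERG, and JUN and JUNB vary least, by 1.24-fold and 1.22-fold between the highest and lowest line.

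The Jun proteins are the partners that every Fos protein needs. JUN and JUNB varied less than any Fos gene, by 1.24-fold and 1.22-fold between the highest and the lowest line, and JUND by 1.65-fold. JUN stood at 44.81 FPKM in RWPE1-Vector, 39.17 in RWPE1-ERG, 43.99 in RWPE1-mAKT and 36.25 in RWPE1-ERG+mAKT. JUNB, which can oppose JUN at some promoters, stood at 110.5, 97.34, 118.4 and 111.5 FPKM in the same order of lines. JUNB shares 259 of its 1830 exon bases with HOOK2 on the opposite strand, and HOOK2 stood at 16.57 to 21.8 FPKM. JUND, the Jun protein that quiescent cells also express, stood at 78.22 FPKM in RWPE1-Vector, 47.42 in RWPE1-ERG, 56.71 in RWPE1-mAKT and 59.33 in RWPE1-ERG+mAKT. All 3 lines that carried ERG, mAKT or both were below the vector line, by 1.65-fold with ERG, 1.38-fold with mAKT and 1.32-fold with both.

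ATF3, a stress-induced partner of Jun proteins that represses transcription as a homodimer, stood at 9.46 FPKM in RWPE1-Vector, 15.11 in RWPE1-ERG, 10.33 in RWPE1-mAKT and 19.45 in RWPE1-ERG+mAKT. Both lines with ERG were higher than both lines without it. ATF3 was 1.60-fold higher in RWPE1-ERG than in RWPE1-Vector and 1.88-fold higher in RWPE1-ERG+mAKT than in RWPE1-mAKT. Between the ends of this range, RWPE1-ERG+mAKT was 2.06-fold above RWPE1-Vector, a comparison in which 6.11% of all 12399 genes were at least 2-fold apart and 4.11% at least 2-fold higher, and which was added after the values were seen.

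By summed FPKM, Fos group mRNA was 157.1 in RWPE1-Vector, 228.5 in RWPE1-ERG, 137.4 in RWPE1-mAKT and 125.9 in RWPE1-ERG+mAKT. FOSL1 gave 75.7%, 87.7%, 73.1% and 62.0% of these sums. Jun group mRNA was 233.5, 183.9, 219.1 and 207.1 FPKM in the same order of lines, of which JUNB gave 47.3% to 54.0%. RWPE1-ERG was thus the only one of the 4 lines in which the Fos sum was above the Jun sum. The FPKM of all genes together also differed, at 846058 in RWPE1-Vector, 1246086 in RWPE1-ERG, 971508 in RWPE1-mAKT and 959573 in RWPE1-ERG+mAKT. No value here was scaled to these totals. Over genes at 1 FPKM or more in every line, the median log2 ratio to RWPE1-Vector was near 0. It was -0.01 for RWPE1-ERG, 0.02 for RWPE1-mAKT and -0.07 for RWPE1-ERG+mAKT.

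**Figure D2:**
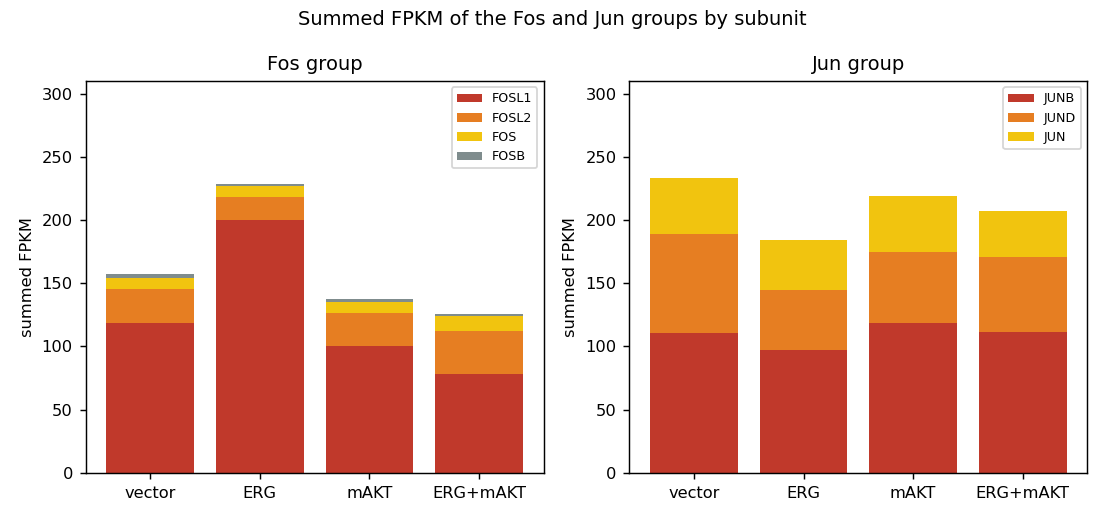
Summed FPKM (vertical axes) of the 4 Fos genes and of the 3 Jun genes in each line, stacked by subunit, with 1 pooled value a line. The Fos sum is 228.5 with ERG alone, 87.7% of it from FOSL1, while the Jun sum is 183.9 there and above 200 in the other lines.

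A difference was counted when the ratio was at least 2 and the higher line had at least 1 FPKM. For RWPE1-ERG over RWPE1-Vector, 1 of the 8 subunits passed (FOSB, lower), beside 7.16% of all 12375 genes tested in either direction and 2.00% lower. For RWPE1-mAKT over RWPE1-Vector, 0 of 8 passed, beside 2.94% of 12265 genes. For RWPE1-ERG+mAKT over RWPE1-ERG, 1 of 8 passed (FOSL1, lower), beside 6.99% of 12444 genes in either direction and 3.83% lower. For RWPE1-ERG+mAKT over RWPE1-mAKT, 0 of 8 passed, beside 4.46% of 12351 genes. Counts of 0 or 1 among 8 are near these backgrounds.

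At 1.5-fold, FOSL1 and ATF3 were higher and FOSB and JUND lower in RWPE1-ERG than in RWPE1-Vector, beside 9.62% of all genes higher and 5.15% lower. In RWPE1-ERG+mAKT against RWPE1-ERG, FOSL2 was higher (background 6.17%) and FOSL1 lower (9.56%). In RWPE1-ERG+mAKT against RWPE1-mAKT, ATF3 was higher (6.15%) and FOSB lower (3.70%). The median log2 ratio of the 8 subunits was -0.19 for ERG over vector, -0.07 for mAKT over vector, 0.33 for ERG+mAKT over ERG and -0.01 for ERG+mAKT over mAKT. The medians of all genes were -0.01, 0.02, -0.05 and -0.08.

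**Figure D3:**
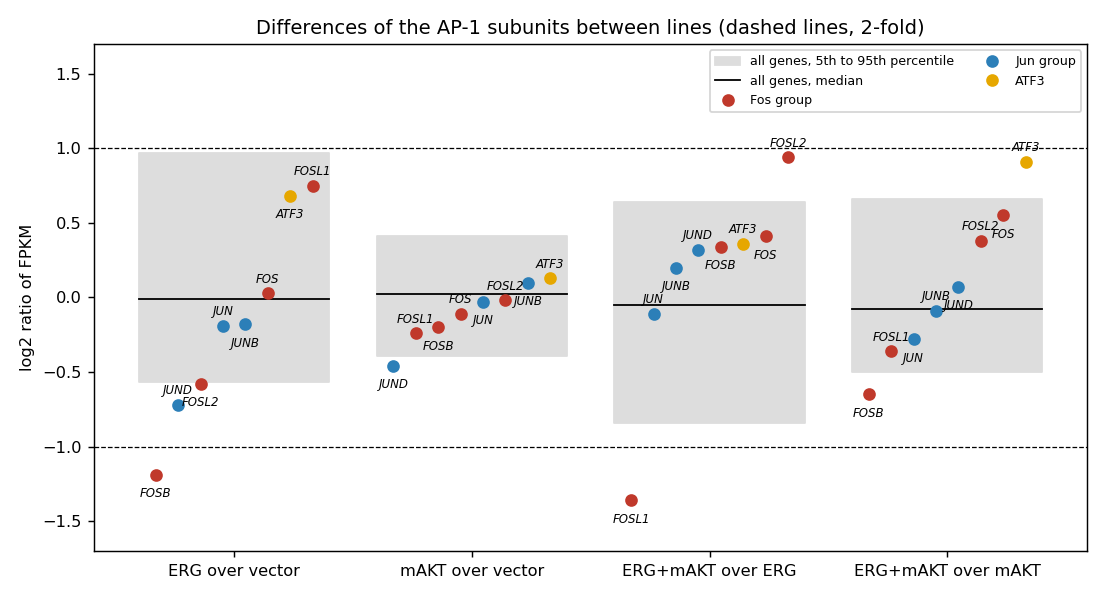
Log2 ratio of FPKM (vertical axis) of each subunit in 4 comparisons of lines, with the Fos group in red, the Jun group in blue, ATF3 in yellow, the 5th to 95th percentile of all genes in grey and their median as a black line. FOSB at -1.19 and FOSL1 at -1.36 are the points beyond the dashed 2-fold lines.

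The log2 ratio for ERG differed with the presence of mAKT. For FOSL1 it was 0.75 without mAKT and -0.36 with it, a difference of -1.12. For FOSL2 the difference was 0.95, for JUND 0.79, for FOSB 0.54, for FOS 0.52, for ATF3 0.24, for JUNB 0.10 and for JUN -0.09. Over all 11511 genes at 1 FPKM or more in every line the same difference had a median of -0.08 and ran from -0.75 at the 5th percentile to 0.55 at the 95th. FOSL1 thus lay below that range and FOSL2 and JUND above it.

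Keratins differed between the same lines. In RWPE1-ERG against RWPE1-Vector, 3 of the 4 tested luminal markers were at least 2-fold higher (KRT8, KRT18 and KRT19). The luminal sum went from 1808.1 to 4569.9 FPKM, with 2063.7 in RWPE1-mAKT and 2534.1 in RWPE1-ERG+mAKT. Of the 5 basal markers, 2 were at least 2-fold lower (KRT5 and KRT14) and 1 higher (KRT15), and the basal sum was 6256.4, 2041.9, 6377.6 and 5088.5 FPKM in the 4 lines. The part of these shifts in the AP-1 values was not tested.

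The genes whose profile over the 4 lines was nearest to that of FOSL1, among 12670 genes and by root mean square distance of centred log2(FPKM + 1) values, were LPAR1 (0.043), SCARNA23 (0.06) and SRPX (0.062). LPAR1, a receptor for lysophosphatidic acid, stood at 21.79, 36.08, 19.29 and 14.12 FPKM. Nearest to FOSB were EOMES (0.029), FAM35A (0.05) and SH3GL3 (0.054), of which EOMES was at 0.16 to 1.05 FPKM. With 4 points to a profile, such likeness is a description.

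Of 25 genes held as AP-1 targets, 18 reached 1 FPKM in a line. In RWPE1-ERG against RWPE1-Vector, 3 of 16 tested were higher and 1 lower, beside 5.16% and 2.00% of all genes. IL1B, an inflammatory cytokine, stood at 46.56 FPKM in RWPE1-Vector, 167.8 in RWPE1-ERG, 42.05 in RWPE1-mAKT and 44.58 in RWPE1-ERG+mAKT. IL1B and FOSL1 were both highest in RWPE1-ERG. In the other lines IL1B stayed between 42.05 and 46.56 FPKM while FOSL1 ran from 78.05 to 118.9. A link between the 2 genes was not tested. IL1A (log2 ratio 1.02) and the cytokine LIF (1.32) were the others that were higher, and SPRR1B was lower (-2.12). For mAKT over vector, 3 of 17 were higher and 1 lower, beside 1.60% and 1.35% of all genes. For ERG+mAKT over ERG, 4 of 18 were higher and 3 lower, beside 3.16% and 3.83%. For ERG+mAKT over mAKT, 2 of 18 were higher, IVL (1.44) and HMOX1 (1.18), and 0 lower, beside 3.08% and 1.38%.

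The 3 genes higher in RWPE1-mAKT than in RWPE1-Vector encode cornified envelope proteins of squamous differentiation, and they were higher in RWPE1-ERG+mAKT than in RWPE1-ERG as well, with HMOX1, a heme oxygenase (1.79 and 3.70 FPKM), as the other gene of the 4. SPRR1B stood at 6.47 FPKM in RWPE1-Vector, 1.48 in RWPE1-ERG, 45.95 in RWPE1-mAKT and 74.84 in RWPE1-ERG+mAKT, and SPRR1A at 1, 0.37, 20.29 and 33.87. The vector value of SPRR1A was rounded up from just under 1 FPKM, so SPRR1A was not tested for ERG over vector. Involucrin (IVL) stood at 0.26, 0.79, 1.64 and 4.43 FPKM. SPRR1A and SPRR1B are near-identical neighbours whose reads may have been split between them. VIM, the mesenchymal filament protein, was lower with mAKT, at 737.0, 1055.8, 366.2 and 288.5 FPKM. TIMP1, an inhibitor of matrix metalloproteinases, was the third lower gene in RWPE1-ERG+mAKT against RWPE1-ERG, with IL1B and VIM (log2 ratio -1.02). The median log2 ratio of the list was 0.49 for ERG over vector and -0.39 for ERG+mAKT over ERG.

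**Figure D4:**
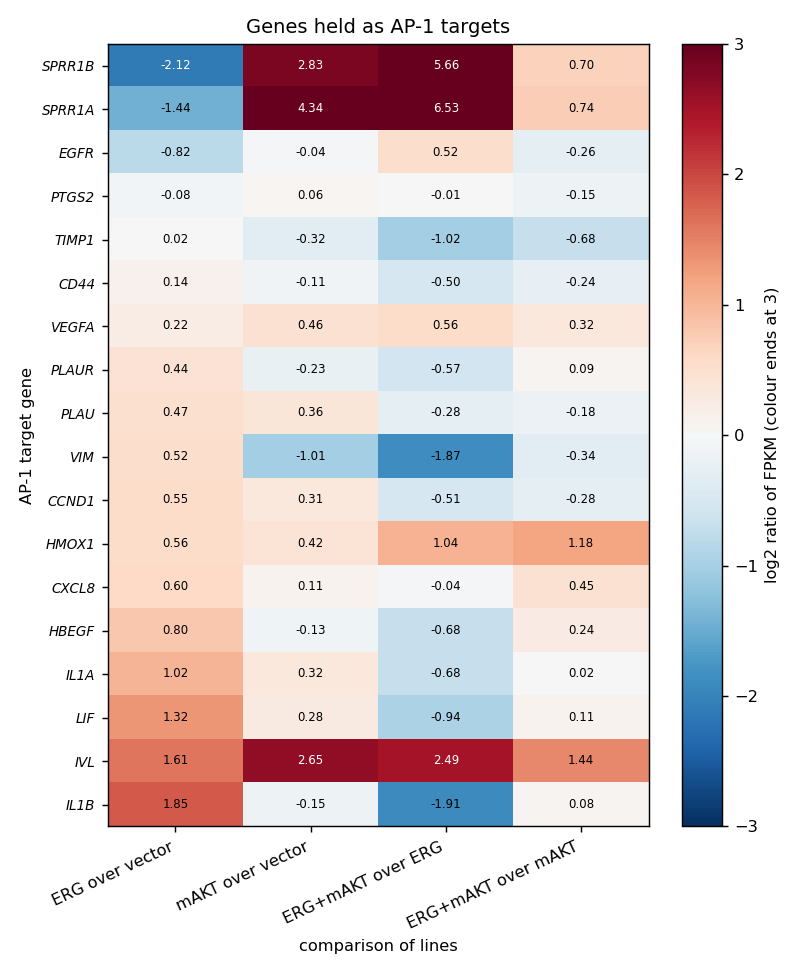
Log2 ratio of FPKM of the 18 AP-1 target genes that reached 1 FPKM in a line (rows) in the 4 comparisons of lines (columns), with red for higher and blue for lower. The lowest rows show LIF and IL1B, higher with ERG, around IVL, which was under 1 FPKM in both of those lines and was not tested there, and the top rows SPRR1A and SPRR1B, higher with mAKT (4.34 and 2.83). SPRR1B was also lower with ERG (-2.12). In that comparison SPRR1A, whose vector value rounds to 1 FPKM, fell just under the minimum and was not tested.

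Of 20 genes listed under the immediate early response and SRF, the factor that also drives FOS, 18 reached 1 FPKM. The list also holds SRF itself and the ETS factors ELK1, ELK3 and ELK4. Regulation of the listed genes by SRF was not tested. In RWPE1-ERG against RWPE1-Vector 2 of 18 were higher, the matricellular genes CYR61 and CTGF, beside 5.16% of all genes. CYR61 stood at 65.41, 255.5, 37.67 and 51.46 FPKM and CTGF at 10.24, 24.12, 6.33 and 5.54 in the lines in the order above. The same 2 genes were the ones that were lower in RWPE1-ERG+mAKT than in RWPE1-ERG, beside 3.83% of all genes. In RWPE1-ERG+mAKT against RWPE1-mAKT 1 of 18 was lower, the ERK phosphatase DUSP6 (74.78 and 32.53 FPKM), beside 1.38% of all genes, and for mAKT over vector 0 of 18 passed, beside 2.94%. A list for the kinase cascade that acts on AP-1 holds 15 genes, not all of them kinases (SPRY2 and FBXW7, for example). None of the 15 was 2-fold apart in any of the 4 comparisons, in which 2.94% to 7.16% of all genes were.

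The subunit loci were then set beside the peak lists, within 20 kb of the locus on either side. On hg19 the table places FOS at chr14:75745481-75748937, FOSB at chr19:45971253-45978437, FOSL1 at chr11:65659607-65667997 and FOSL2 at chr2:28607276-28637516. JUN lies at chr1:59246463-59249785, JUNB at chr19:12902310-12904125, JUND at chr19:18390504-18392466 and ATF3 at chr1:212738676-212794119, where the locus begins at an upstream start and so reaches far from the start used for distances. Each list comes from 1 library, with no replicate, and fold enrichment (ChIP signal over local background) is given only within a list. ERK2 peaks of RWPE1-ERG lay near 6 of 8 subunits, all but JUN and ATF3, with 15 peaks in all. In that list 24.2% of all genes, and 33.4% of the 12670 genes at 1 FPKM or more, had a peak within 20 kb. In the larger list of RWPE1-Vector, with 41276 peaks against 5721, 7 of 8 subunits had a peak, beside 68.2% of all genes and 76.6% of those at 1 FPKM or more, so the share is near its background. Of the 15 ERK2 peaks of RWPE1-ERG near subunits, 7 overlapped an ATAC peak of that line, beside 41.1% of all peaks, and 3 overlapped a peak of RWPE1-Vector, beside 15.3%.

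The ERK2 peak of highest fold enrichment near a subunit in RWPE1-ERG lay downstream of FOSB, at chr19:45981601-45981897, in an intron of ERCC1 and 10347 bp from the FOSB start (fold enrichment 5.25, -log10 q of 1.52). The FOSB sequence printed above lies within it, so the ERG peak of VCaP cells (3.73-fold) fell on the same site. ATAC peaks of all 3 lines overlapped it. At the start of FOSB itself, ERK2 peaks of RWPE1-Vector (4.31-fold) and of RWPE1-ERG (2.93-fold) overlapped each other on its annotated UTR.

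JUNB had ERK2 peaks of both lines at 2 places. One pair lay upstream, 704 bp from the start in RWPE1-Vector and 837 bp in RWPE1-ERG, and the other in the coding exon, at 4.31-fold in RWPE1-Vector and 4.09-fold in RWPE1-ERG. The JUNB site printed above, 7543 bp upstream in an intron of HOOK2, was a listed ERG peak of RWPE1-ERG+mAKT (4.94-fold, -log10 q of 1.51). It overlapped a listed ERK2 peak of RWPE1-Vector (4.31-fold, -log10 q of 0.9) and ATAC peaks of all 3 lines. The ERK2 list of RWPE1-ERG had no peak there.

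FOS had 1 ERK2 peak in each list, 99 bp downstream of the start in RWPE1-ERG (3.70-fold) and 1969 bp downstream in RWPE1-Vector (3.57-fold). JUND had 3 ERK2 peaks in RWPE1-ERG and 0 in RWPE1-Vector, the nearest 1894 bp upstream (3.70-fold). FOSL2 had 2 in RWPE1-Vector and 3 in RWPE1-ERG. Of those in RWPE1-ERG, the peaks 1362 bp and 1731 bp upstream lay in the ATAC peak over the start. FOSL1, the subunit of highest FPKM with ERG, had 5 in RWPE1-Vector and 4 in RWPE1-ERG. In RWPE1-ERG none was nearer than 8554 bp, where the peak (4.47-fold) lay on a UTR of the neighbour CCDC85B. In RWPE1-Vector the nearest lay 7530 bp downstream of the start, on a UTR of FOSL1 itself (2.46-fold).

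ERG peaks of RWPE1-ERG+mAKT lay near 5 of 8 subunits (FOSL1, FOSL2, JUN, JUNB and ATF3), beside 30.2% of all genes and 32.5% of those at 1 FPKM or more. Of these 6 peaks 4 were in ATAC peaks of that line, beside 18.5% of all ERG peaks. None was on a promoter. The distances from the start were 7543 bp upstream for JUNB, 11722 bp upstream for FOSL1, 16426 bp downstream in an intron of FOSL2, 20429 and 20638 bp downstream of JUN, and 31631 bp downstream of ATF3. In VCaP cells 2 of 8 subunits had an ERG peak, FOSB and JUND (839 bp upstream, 3.50-fold), beside 21.3% of all genes and 24.7% of those at 1 FPKM or more in RWPE1. An ERG peak in both RWPE1-ERG+mAKT and VCaP cells was found for 0 of 8 subunits, beside 9.11% of all genes, so a count of 0 is near its background. With a window of 5 kb, 1 subunit (FOSL2) had an ERG peak in RWPE1-ERG+mAKT, beside 22.0% of all genes, so the subunits' share was above that of all genes at 20 kb and below it at 5 kb.

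**Figure D5:**
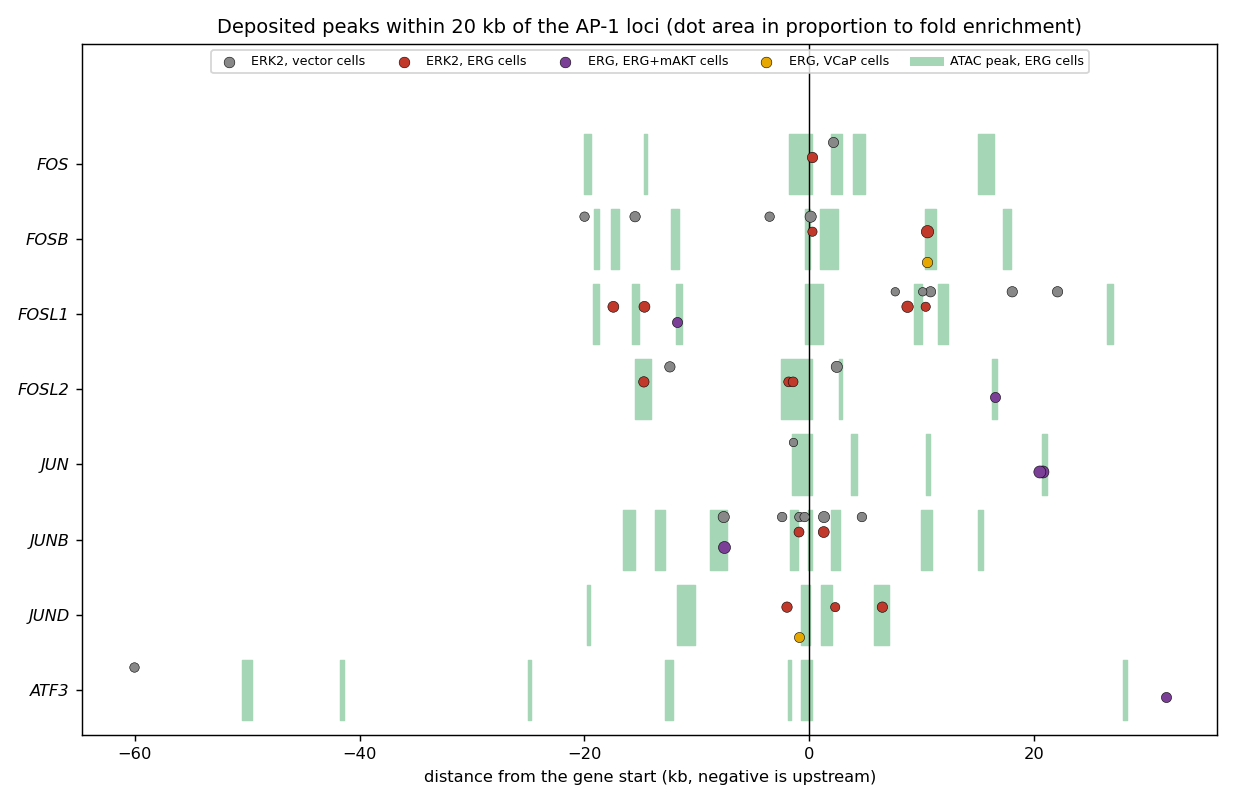
Positions of the deposited peaks along each subunit locus, in kb from the gene start (horizontal axis, negative upstream), with ATAC peaks of RWPE1-ERG as green bands over their width and ChIP peaks as dots at their centres with area in proportion to fold enrichment. Downstream of FOSB the ERK2 dot of RWPE1-ERG and the ERG dot of VCaP cells coincide. Upstream of JUNB the ERK2 dot of RWPE1-Vector and the ERG dot of RWPE1-ERG+mAKT coincide, from different lines. Every start lies in an ATAC peak.

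None of these ChIP peaks passed a strict threshold. At a q-value of at most 0.01, 0 of the 8 subunits kept a peak in any of the 4 lists, in which 306 (ERK2, RWPE1-Vector), 178 (ERK2, RWPE1-ERG), 450 (ERG, RWPE1-ERG+mAKT) and 1730 (ERG, VCaP) peaks passed.

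Open chromatin was present at all 8 loci in all 3 ATAC lists, with 48 peaks in RWPE1-ERG, 45 in RWPE1-mAKT and 42 in RWPE1-ERG+mAKT. Of all genes 88.4%, 87.3% and 83.1% had an ATAC peak within 20 kb, and of those at 1 FPKM or more 98.4%, 98.3% and 97.7%, so this is the usual state of an expressed gene. The gene start lay in a peak for all 8 subunits in RWPE1-ERG and RWPE1-mAKT, and for all but FOSB in RWPE1-ERG+mAKT. At FOSL1, whose FPKM was 2.57-fold apart between them, the start lay in a peak of 1562 bp in RWPE1-ERG and 1516 bp in RWPE1-ERG+mAKT. At FOSB, the start lay in the same 429 bp interval in RWPE1-ERG and RWPE1-mAKT.

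H3K27me3, the mark laid down by Polycomb repressive complex 2, was listed on 2 of the 8 gene bodies in RWPE1-Vector (FOSL2 and ATF3), beside 75.9% of all genes and 71.6% of those at 1 FPKM or more. In RWPE1-ERG it was listed on ATF3 alone, beside 42.3% and 21.4%, and in RWPE1-ERG S96E on ATF3 alone, beside 45.0% and 21.5%. A count of 1 among 8 is near the share of expressed genes in the last pair of lists. FOSL2 and ATF3 are the longest of the 8 loci, at 30241 and 55444 bp against 1816 to 8391 bp for the others. A longer locus can overlap a region more easily, and the shares of all genes were not matched for length. Regions on ATF3 covered 11.9% of the 55444 bp locus in RWPE1-Vector, 0.4% in RWPE1-ERG and 2.2% in RWPE1-ERG S96E. At least 10% of the locus was covered for 24.0%, 14.3% and 23.1% of all genes in these lists. The list of RWPE1-Vector held 492265 regions, against 228233 in RWPE1-ERG and 252784 in RWPE1-ERG S96E, and 29, 39 and 3413 of these passed a q-value of 0.01. The ATF3 values moved with the size of the lists, and the part of list size in them was not tested.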

How the data were processed

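RNA values were the FPKM that the authors deposited in a Cuffdiff table after TopHat2 alignment, 1 value for each of 4 lines pooled over 3 poly(A) libraries. The table holds 0 columns of single samples and gives no library depth, and whether counting used strand is not given in the sources used here. Its fold change, test and significance columns, the authors' own comparisons, were not used. Peaks were the authors' deposited MACS2 lists (versions 2.1.2 and 2.2.7.1 where a header names one) on hg19 after Bowtie2, with a pileup signal, a fold enrichment ratio, and -log10 p and -log10 q values. Deposited lists held -log10 p down to 2.01 for ERK2 in RWPE1-Vector and 1.0 for H3K27me3. Headers give 8393459 (vector) and 15020233 (ERG) reads for ERK2 and 10306483 for ERG. The methods state that each ChIP library pools 3 experiments, so 1 list stands for 1 line.

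FPKM ratios were taken without a pseudocount. Loci were the table's, extended by 20 kb, an overlap was at least 1 bp, and gene starts came from GENCODE 44 on GRCh37. Design called for no test, and none was run. The members and lists were chosen with earlier results of these data known. Named were all 8 members, up to 3 genes of largest log2(FPKM + 1) difference per direction, comparison and list if 2-fold, the 3 nearest profiles of each 2-fold member, and the nearest and most enriched peaks. Alternatives were a 1.5-fold limit, a pseudocount of 1, no filter or 5 FPKM, median scaling, windows of 5 and 50 kb, a q-value of 0.01, annotated gene bodies and equal list sizes. Code (Python 3.11.15, pandas 2.3.3) was tested on simulated data. Of the deposited lists, 2 whose contents disagree with their sample labels were not used, so ATAC of RWPE1-Vector and ERG with LY294002 were not analysed here. Results for 3 further genes of the lists are not reported here.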

Additional observations from a re-analysis of the deposited data

Results flagged for a closer look

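For 3 subunits the ERG ratio had opposite signs without and with mAKT. FOSL1 was 0.75 log2 units higher in RWPE1-ERG than in RWPE1-Vector and 0.36 lower (log2 ratio -0.36) in RWPE1-ERG+mAKT than in RWPE1-mAKT, a difference of -1.12. FOSL2 had log2 ratios of -0.58 and 0.38, a difference of 0.95. JUND had log2 ratios of -0.72 and 0.07, a difference of 0.79, of which the second ratio is near 0. Each line has 1 pooled value, so these differences were not tested. Opposite signs were also found for 43.7% of the 11511 genes at 1 FPKM or more in every line.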

How the results depend on the processing

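No paired analysis was possible because the table holds pooled FPKM values only, and for the same reason leaving out each replicate in turn was not run. Of 64 recomputed log2 ratios of subunits (a pseudocount of 1 and median scaling, in 32 pairs of gene and comparison), 62 kept their side of 2-fold and 2 did not. None of the ratios past 2-fold changed sign. Sign was not checked for the smaller ratios, of which JUNB for ERG+mAKT over mAKT went from -0.09 to 0 with median scaling. For ERG over vector, the count of subunits past 2-fold went from 1 to 0 with a pseudocount of 1 (FOSB at -0.75), to 0 with at least 5 FPKM, and to 4 at 1.5-fold. At 1.5-fold it went from 1 to 2 for ERG+mAKT over ERG and from 0 to 2 for ERG+mAKT over mAKT. With median scaling it went from 0 to 1 for ERG+mAKT over mAKT, where ATF3 reached a log2 ratio of 1. FOSL1 stayed past 2-fold in ERG+mAKT over ERG under every alternative tried. Scaling to the total FPKM of a line, 1246086 in RWPE1-ERG and 959573 in RWPE1-ERG+mAKT, was not tried and would bring this ratio down. At a q-value of at most 0.01, the counts of subunits with an ERK2 peak (6 in RWPE1-ERG, 7 in RWPE1-Vector) and with an ERG peak (5 in RWPE1-ERG+mAKT, 2 in VCaP) all went to 0. With as many peaks as in RWPE1-ERG, RWPE1-Vector had ERK2 peaks near 4 subunits, beside 23.8% of all genes. With a 5 kb window, 1 subunit (FOSL2) had an ERG peak in RWPE1-ERG+mAKT, beside 22.0% of all genes. With at least 10% of the locus covered, 1 subunit (ATF3) had H3K27me3. The ATAC count stayed at 8 in every alternative. RNA depth is unknown, and ERK2 had fewer ChIP reads in RWPE1-Vector (8393459) than in RWPE1-ERG (15020233).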

Other observations

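Among 11 other bZIP genes that can pair with AP-1 subunits or compete with them, 8 reached 1 FPKM in a line. In RWPE1-ERG+mAKT against RWPE1-ERG, BATF3, which pairs with Jun proteins, was lower (1.14 and 0.43 FPKM), as were 3.83% of all genes. For ERG over vector 0 of 7 tested genes passed, and for mAKT over vector 0 of 6, beside 7.16% and 2.94% of all genes.

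Of 8 genes of the ATF4 and stress pathways that act upstream of ATF3, 1 was 2-fold apart in 1 of the 4 comparisons. CHAC1, an ATF4 target that degrades glutathione, stood at 3.77 FPKM in RWPE1-Vector, 2.68 in RWPE1-ERG, 6.38 in RWPE1-mAKT and 6.84 in RWPE1-ERG+mAKT. It was higher in RWPE1-ERG+mAKT than in RWPE1-ERG, as were 3.16% of all genes.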
